A study of Mus musculus with 3 samples.

Results

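The integrated stress response is a shared route by which cells answer amino acid shortage, misfolded protein, oxidants and mitochondrial faults. This account covers 10 of its genes, out of 18287 genes listed in the deposited tables: the transcription factors Atf4, Atf5, Atf3, Ddit3 and Cebpb, and the feedback and effector genes Trib3, Ppp1r15a, Chac1, Sesn2 and Ddit4. They were chosen by name after measured values of these same libraries had been seen, including their differences from control, so those differences are given as a description with no test. All 10 genes were listed and had reads in every library.

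The RNA came from mouse aortic endothelial cells, which line the aorta and were bought together with their medium. There were 3 libraries, 1 in each group. The control cells were untreated. Glucose oxidase, which produces hydrogen peroxide as it oxidises glucose, was given at 5 mU/mL for 30 min. The last group had the same glucose oxidase exposure and also 0.2 mM ethyl-2-hydroxybenzylamine (Et2HOBA) for 24 h; Et2HOBA scavenges isolevuglandins, reactive lipid products of oxidation. The labels do not give which agent came first, nor whether RNA was taken right after glucose oxidase. A library with Et2HOBA alone was not analysed here.

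In this response, kinases phosphorylate the translation initiation factor eIF2, which slows most protein synthesis but favours translation of the Atf4 mRNA. ATF4 then raises transcription of genes for amino acid supply, of further factors such as Ddit3 (CHOP) and Atf3, and of feedback genes: Ppp1r15a (GADD34) directs a phosphatase back to eIF2, and Trib3 restrains ATF4 itself. In endothelial cells, oxidised lipids and peroxides are known inducers. Only mRNA was measured here, so neither eIF2 phosphorylation nor ATF4 protein can be read from the values.

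Read counts were divided by size factors of the 3 libraries (normalized counts), and a log2 ratio is taken between normalized counts plus 10. A gene was counted as higher or lower at a log2 ratio of at least 1 in size. With 1 library per group there is no replicate spread and no test; the 95% intervals are exact (Clopper-Pearson), cover counting error only, and compare these libraries, not the conditions. In such bulk RNA, fewer cells of a type and less RNA per cell cannot be told apart. The libraries held 35005089 to 40212212 reads over listed genes.

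Against control, 7 of the 10 genes were higher and none was lower in the glucose oxidase library, beside 4.07% of all listed genes higher and 8.6% lower (among the 13285 protein-coding genes, 4.53% and 4.76%). With Et2HOBA as well, 8 were higher and none lower than control, beside 6.66% of all listed genes higher and 8.04% lower (among protein-coding genes, 7.33% and 9.3%). The median log2 ratio of the 10 genes was 2.32 and 3.05 in these comparisons, and that of all listed genes was -0.01 and 0.00. Both comparisons share the single control library. Cebpb, at 1.16 with Et2HOBA, was the called gene nearest to the limit. The nearest genes not called, also with Et2HOBA, were Ddit4, at -0.893, and Sesn2, at 0.891. Ddit4 alone had fewer normalized reads in both treated libraries than in control.

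**Figure D1:**
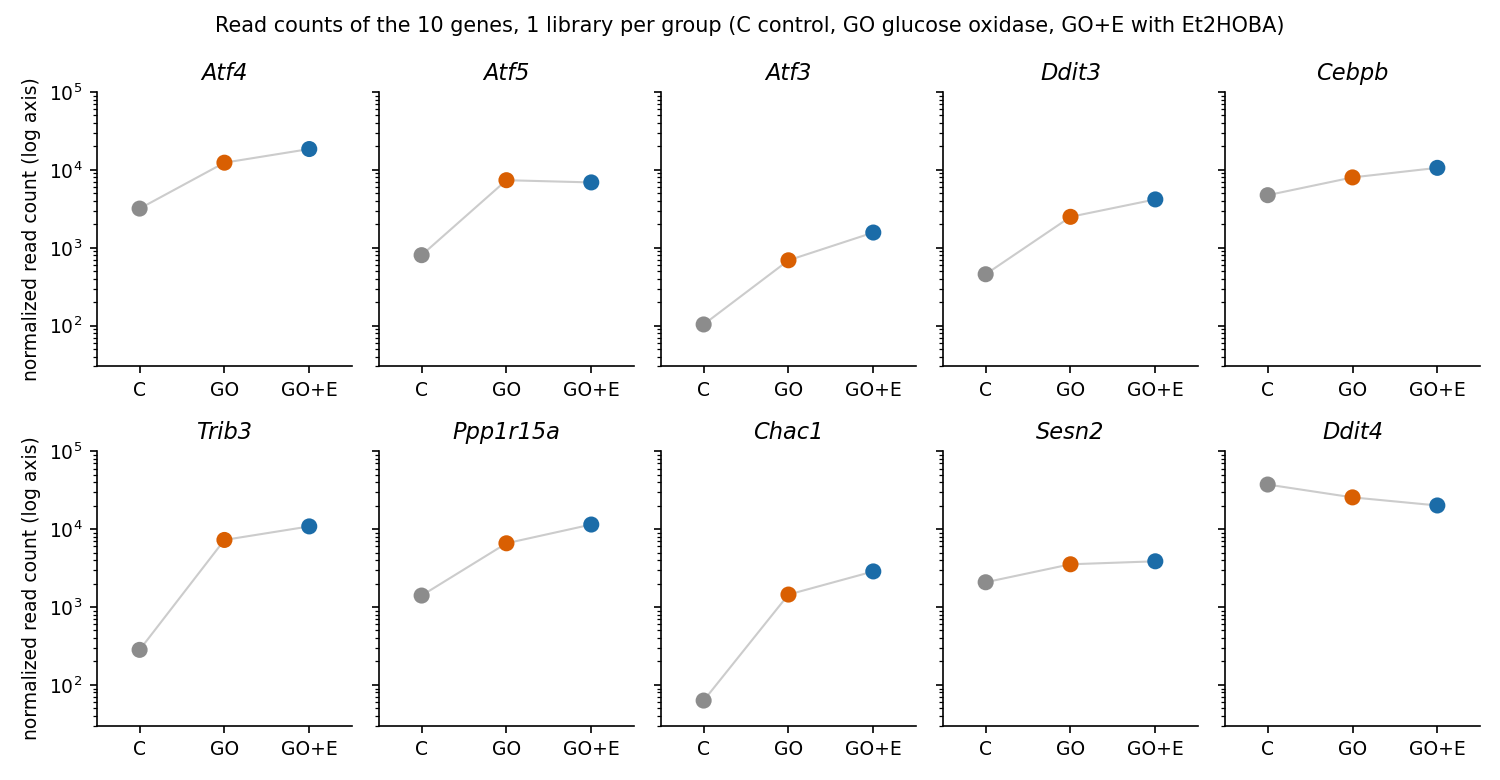
Normalized read count of each of the 10 genes (vertical log axis) in the 3 libraries (C, control; GO, glucose oxidase; GO+E, with Et2HOBA added); each point is 1 library, with no error bar because no group has a replicate. Chac1 started from 65 reads in control, and Ddit4, at 38578 reads in control, is the gene whose points descend.

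The bases around the start of a few of these genes are shown. Those of Atf3, Chac1 and Trib3 hold a sequence that ATF4 and its C/EBP partners are known to bind. The motif TGATGNAA, the composite element of C/EBP and ATF factors, was searched on both strands of the RefSeq promoter table (build GRCm38.p6, 250 bases before to 50 after each start), in which all 10 genes had an entry. It was found for 3 of the 10 genes, Atf3, Chac1 and Trib3, beside 3.97% of 32851 promoters and 2.86% of the 11414 listed genes with an entry. TGACGTCA, the cyclic AMP response element, was found for 1 of the 10, Ppp1r15a, beside 1.79% of promoters and 3.42% of listed genes with an entry. Capitals mark the motif in the sequences, which are written 5′ to 3′ on the gene's strand. They leave out bases of annotated exons, except for Trib3, where 30 bases around the element are given. Ddit4, the gene with fewer normalized reads in both treated libraries than in control, is also shown and holds neither motif. Atf4, Atf5, Ddit3, Cebpb and Sesn2, which stood above control, hold neither motif as well, so the motifs do not set Ddit4 apart.
Atf3, chr1:191183341-191183583, minus strand: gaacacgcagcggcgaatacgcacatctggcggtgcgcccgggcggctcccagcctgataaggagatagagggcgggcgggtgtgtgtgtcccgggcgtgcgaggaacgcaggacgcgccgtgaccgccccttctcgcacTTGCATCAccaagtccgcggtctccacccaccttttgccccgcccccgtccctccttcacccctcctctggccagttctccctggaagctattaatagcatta
Chac1, chr2:119350992-119351228, plus strand: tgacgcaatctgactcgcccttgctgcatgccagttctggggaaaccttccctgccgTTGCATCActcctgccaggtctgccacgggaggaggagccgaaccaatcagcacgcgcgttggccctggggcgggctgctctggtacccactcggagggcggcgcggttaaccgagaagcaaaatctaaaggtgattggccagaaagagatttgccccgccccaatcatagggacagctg
Trib3, chr2:152344028-152344057, minus strand: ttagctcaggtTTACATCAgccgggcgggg
Ppp1r15a, chr7:45526269-45526329, minus strand: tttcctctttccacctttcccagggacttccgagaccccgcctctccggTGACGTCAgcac
Ddit4, chr10:59951835-59952020, minus strand: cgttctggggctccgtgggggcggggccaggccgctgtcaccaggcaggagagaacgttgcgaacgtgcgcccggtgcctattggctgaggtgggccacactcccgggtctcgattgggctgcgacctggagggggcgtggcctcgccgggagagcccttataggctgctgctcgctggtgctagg
The element begins 110 bases before the RefSeq start in Atf3 and 193 before it in Chac1. In Trib3 it begins 15 bases after the RefSeq start, and in Ppp1r15a the palindrome TGACGTCA begins 12 bases before it. The Atf3 start used lies inside the listed gene, whose 5′ end is at 191218039, and that outer start was not searched. The listed Trib3 gene has its 5′ end at 152344032, downstream of the element, so its position holds for the RefSeq start only. A match describes letters, not a bound site, and for the other genes, Atf4, Atf5, Ddit3, Cebpb and Sesn2 among them, it says only that these letters are not in this window.

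Atf4 (ENSMUSG00000042406.8, chr15:80255184-80257541, GRCm38) encodes the factor at the centre of the response. It had 3288 reads in control, 11946 with glucose oxidase and 19243 with glucose oxidase plus Et2HOBA. The level was thus lowest in control and highest with Et2HOBA. Its normalized count was 3.88-fold control with glucose oxidase (95% interval 3.74 to 4.04) and 5.82-fold control with Et2HOBA added (5.60 to 6.04). Between the treated libraries it was 1.50-fold higher with Et2HOBA (1.46 to 1.53).

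Atf5 (ENSMUSG00000038539.15, chr7:44812256-44816658), a related factor that is also controlled at translation, had 830 reads in control, 7118 with glucose oxidase and 7172 with Et2HOBA added. Both treated libraries stood well above control and close to each other. The folds over control were 9.17 (8.53 to 9.86) and 8.59 (7.99 to 9.24). With Et2HOBA its normalized count was 0.937 of that with glucose oxidase (0.906 to 0.968), where Atf4 stood higher.

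Atf3 (ENSMUSG00000026628.13, chr1:191170296-191218039), a stress-induced factor that can repress its own targets, had 107 reads in control, 667 with glucose oxidase and 1630 with Et2HOBA added. It was 6.66-fold control (5.43 to 8.25) with glucose oxidase and 15.1-fold control (12.4 to 18.6) with Et2HOBA added. Its 2.27-fold difference between the treated libraries (2.07 to 2.49) was the largest of the 10 genes. Atf3 ranked 83 by that log2 ratio among protein-coding genes.

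Ddit3 (ENSMUSG00000025408.15, chr10:127290774-127296288) encodes CHOP, a C/EBP relative tied to cell death under prolonged stress. It had 472, 2411 and 4339 reads in the same order. These counts were 5.46-fold control (4.95 to 6.04) and 9.13-fold control (8.30 to 10.07), and 1.67-fold higher with Et2HOBA than without (1.59 to 1.76). Cebpb (ENSMUSG00000056501.3, chr2:167688915-167690418), a C/EBP factor that can pair with ATF4, had more reads in control and stood closer to control in the treated libraries. It had 4887, 7730 and 11033 reads, which were 1.69-fold (1.63 to 1.75) and 2.24-fold (2.17 to 2.32) control. Of its exon bases, 20.7% also lie in exons of Tmem189 on the opposite strand, which had 1213, 1094 and 1406 reads. Ddit3 shares 3.97% of its exon bases with Mars and Atf5 4.11% with Nup62 and Il4i1, also on the opposite strand. The libraries were stranded per the labels, but the strand setting of the counting is not given in the sources used here. Reads in these opposite-strand stretches thus cannot be assigned. Ddit3 also shares 6.13% of its exon bases with another annotated Ddit3 entry on the same strand, which was not among the listed genes. Strand cannot separate reads in that stretch.

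Trib3 (ENSMUSG00000032715.9, chr2:152337422-152344032), a pseudokinase that binds ATF4 and damps it, had 291 reads in control, 7016 with glucose oxidase and 11263 with Et2HOBA added. Its normalized count was 25.8-fold control (22.9 to 29.1) and 38.5-fold control (34.2 to 43.4). Trib3 ranked 3 and 7 by log2 ratio among all 18287 genes in these comparisons. Chac1 (ENSMUSG00000027313.3, chr2:119351229-119354381), an enzyme that breaks down glutathione and a known ATF4 and CHOP target, had 65, 1396 and 2976 reads. The folds were 22.96 (17.9 to 29.9) and 45.5 (35.6 to 59.1), with ranks of 7 and 4. Chac1 was 1.98-fold higher with Et2HOBA than with glucose oxidase alone (1.86 to 2.11), a log2 ratio of 0.98.

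Ppp1r15a (ENSMUSG00000040435.12, chr7:45522916-45526268), whose protein restores translation by directing protein phosphatase 1 to eIF2, had 1449, 6356 and 11899 reads. It was 4.69-fold control (4.43 to 4.97) with glucose oxidase and 8.16-fold control (7.73 to 8.62) with Et2HOBA added. Its constitutive relative Ppp1r15b had 2796, 3068 and 3890 reads, with log2 ratios to control of 0.23 and 0.47.

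Sesn2 and Ddit4 both encode brakes on the growth kinase mTORC1, and both are known targets of ATF4, and their values lay on opposite sides of control. Sesn2 (ENSMUSG00000028893.8, chr4:132492032-132510501) had 2147, 3417 and 4015 reads, 1.70-fold (1.61 to 1.80) and 1.86-fold (1.76 to 1.96) control. Ddit4 (ENSMUSG00000020108.4, chr10:59949669-59951834), also called REDD1, had 38578 reads in control, 24686 with glucose oxidase and 20909 with Et2HOBA added. Its normalized count was 0.684 of control (0.673 to 0.695) and 0.539 of control (0.530 to 0.548), so control was the highest of the 3 libraries. Neither gene passed the limit in either comparison.

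**Figure D2:**
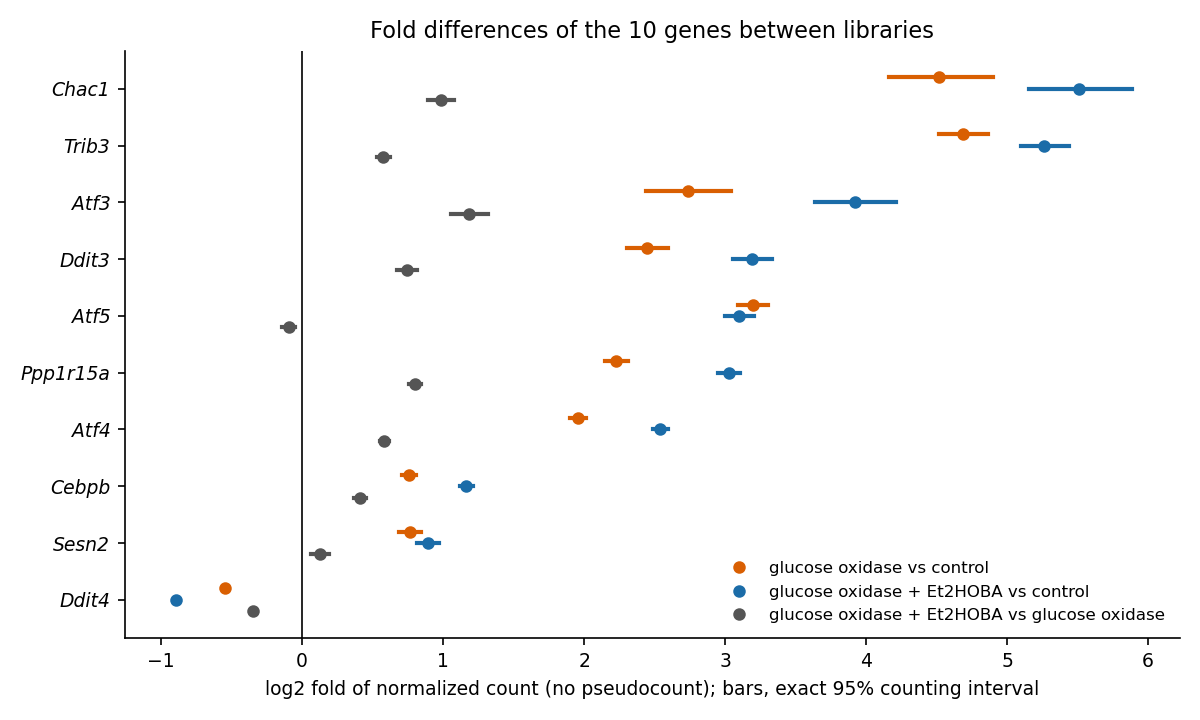
Log2 fold of the normalized count for each of the 10 genes (horizontal axis, no pseudocount) in the 3 comparisons, with exact 95% counting intervals as bars, which for Ddit4 are narrower than the points. Trib3 and Chac1 lie farthest to the right against control, and Ddit4 lies left of 0 throughout.

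Per kilobase of exon, the scale on which levels of different genes can be set side by side, Ddit4 was the most abundant of the 10 in all 3 libraries. It had 21300 normalized reads per kilobase in control, against 1351 for Atf4 and 38.5 for Chac1, the lowest. The ratio of Ddit4 to Atf4 per kilobase was 15.8 in control, 2.78 with glucose oxidase and 1.46 with Et2HOBA added. Trib3, at 133 normalized reads per kilobase, was among the 3 lowest in control; at 3420 and 5103 it stood among the upper 5 in both treated libraries. In control Cebpb, at 3149 normalized reads per kilobase, stood above Atf4. Neighbours such as Trib3 at 3420 and Atf5 at 3700 with glucose oxidase, or Cebpb at 7063 and Atf4 at 7857 with Et2HOBA added, cannot be ordered beyond library spread, since there is none to compare with. Ddit4 alone took 74.0% of the reads on the 10 genes in control, 33.9% with glucose oxidase and 22.1% with Et2HOBA. The other 9 genes together held 0.0376%, 0.137% and 0.183% of all listed reads in these libraries.

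The treated libraries were compared directly to see whether the 10 genes stood lower with the scavenger. Of the 10 genes only Atf3 passed the limit, as higher with Et2HOBA (log2 ratio 1.17), beside 6.39% of all listed genes higher and 2.15% lower (among protein-coding genes, 0.971% and 2.35%). None of the 10 was lower past the limit. The median log2 ratio was 0.58, against 0 for all listed genes. Counting intervals lay above 1-fold for 8 genes, among them Ppp1r15a at 1.74-fold (1.69 to 1.79), Trib3 at 1.49-fold (1.45 to 1.54), Cebpb at 1.33-fold (1.29 to 1.37) and Sesn2 at 1.09-fold (1.04 to 1.14). They lay below 1-fold for Atf5 and Ddit4, the latter at 0.787 (0.773 to 0.802). The share of all listed genes with such intervals was not computed, so this split of the 10 genes has no background. At this depth small folds can have intervals clear of 1-fold.

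**Figure D3:**
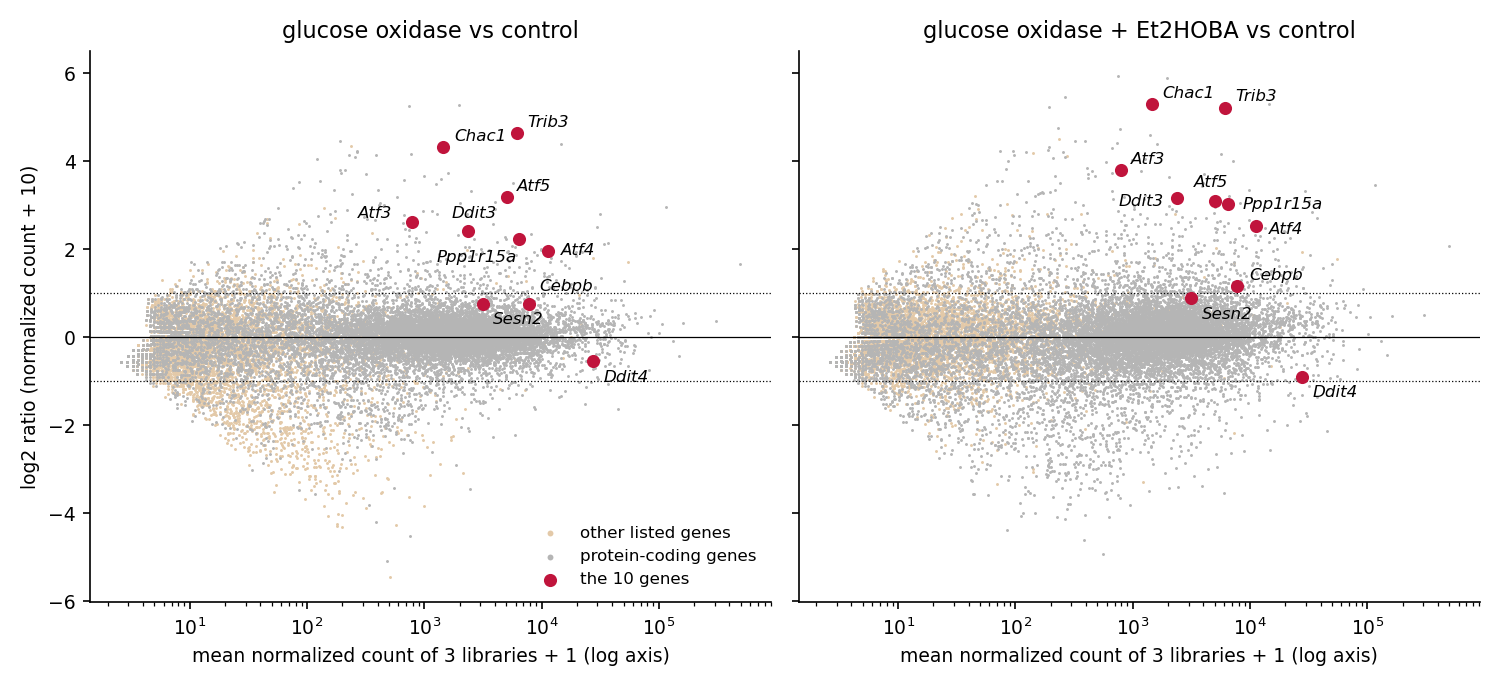
Log2 ratio to control (vertical) against mean normalized count plus 1 (log axis) for all 18287 listed genes in each treated library, with the 10 genes labelled and dotted lines at the limit of 1. Trib3 and Chac1 lie near the upper edge of the cloud at their abundance, Cebpb and Sesn2 near the upper limit, and Ddit4 below 0.

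Relatives of the 10 genes, all taken from family lists, had smaller or opposite ratios in several families. Of 18 listed ATF and CREB genes, 4 were higher with glucose oxidase and 7 with Et2HOBA added, and none was lower. Of all listed genes, 4.07% and 6.66% were higher in these comparisons. Besides Atf3, Atf4 and Atf5, the higher family members were Creb5 (34, 85 and 154 reads), and with Et2HOBA also Jdp2, Batf3 and Atf6. Jdp2, which represses at AP-1 and ATF sites, had 1327, 2462 and 4137 reads. The remaining listed members, which were Atf1, Atf2, Atf6b, Atf7, Batf2, Creb1, Creb3, Creb3l1, Creb3l2, Crebzf and Crem, lay within the limit in both comparisons. Among the 6 listed C/EBP genes, Cebpg, a partner of ATF4, had log2 ratios to control of 0.51 and 0.76. Cebpd had 0.24 and 0.14, Cebpz 0.25 and 0.44, and Cebpa, with only 56 to 59 reads, 0.02 and -0.07.

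Trib1 and Trib2, the other Tribbles pseudokinases, had log2 ratios to control of -0.01 and 0.44 with glucose oxidase and 0.41 and 0.70 with Et2HOBA added, far under those of Trib3. Chac2, the constitutive relative of Chac1, had 351, 354 and 364 reads. The sestrins split: Sesn1 had 2328, 1190 and 495 reads and Sesn3 2301, 1367 and 798, against the higher treated values of Sesn2. With Et2HOBA added both were lower than control past the limit (log2 ratios -2.22 for Sesn1 and -1.52 for Sesn3), and with glucose oxidase both lay within it (-0.87 and -0.65). Ddit4l, the relative of Ddit4, had 440, 379 and 341 reads, within the limit.

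**Figure D4:**
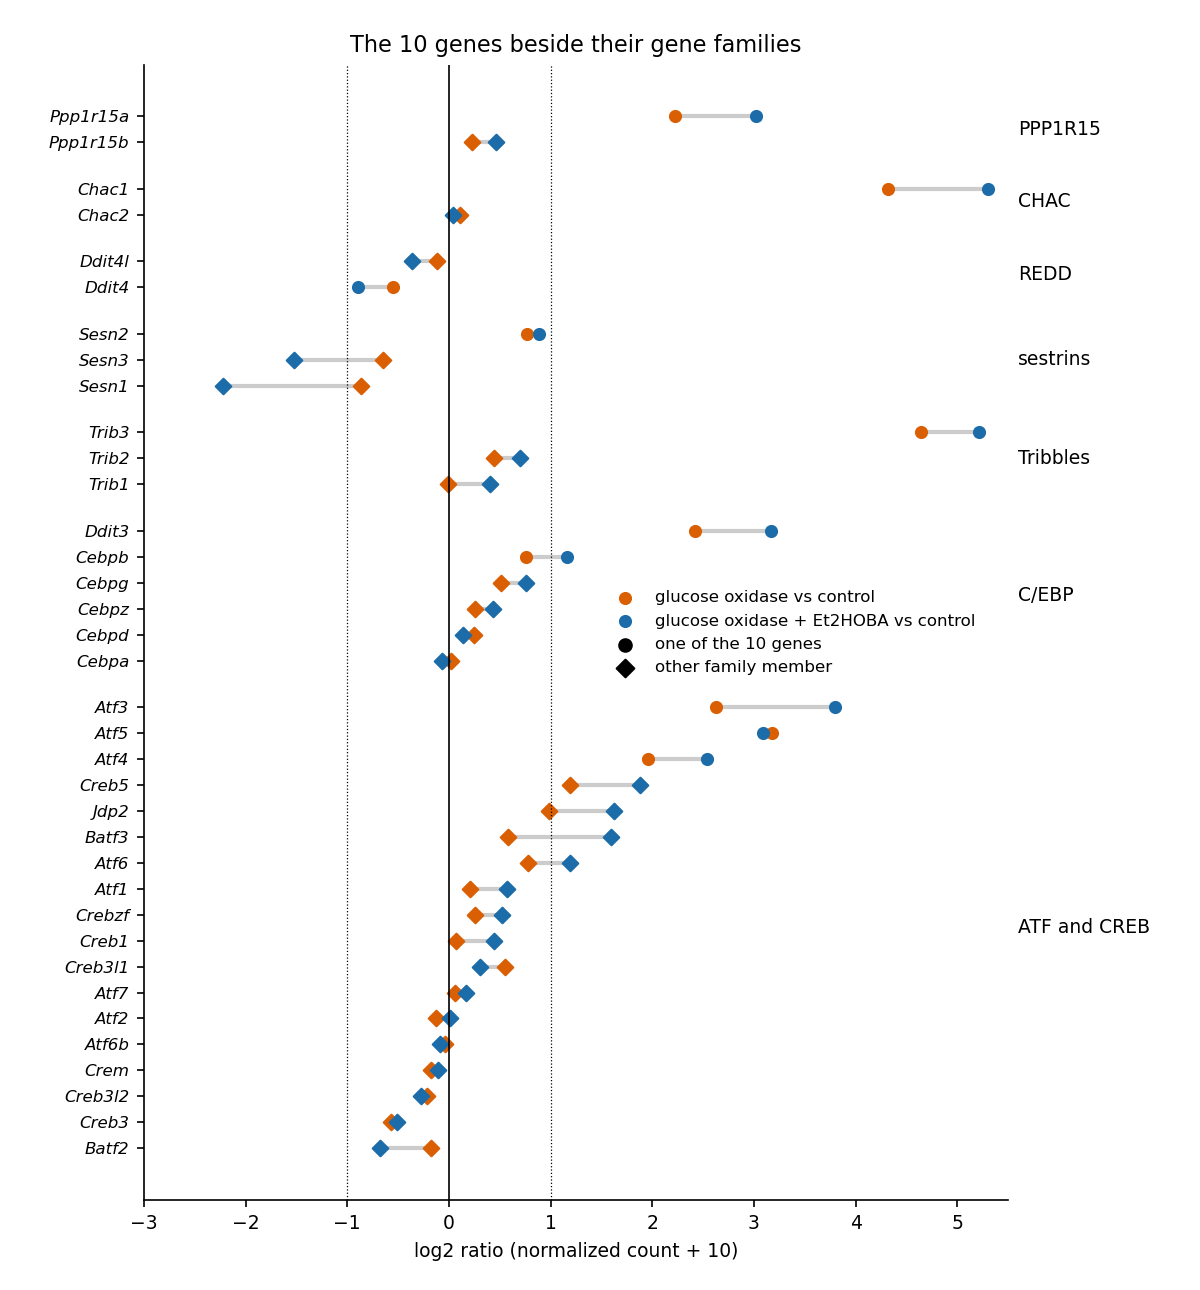
Log2 ratio to control (horizontal) of the 10 genes (circles) and their listed relatives (diamonds), with glucose oxidase in orange and glucose oxidase plus Et2HOBA in blue; dotted lines mark the limit of 1. Chac1 and Trib3 stand far from their relatives, and Sesn1 and Sesn3 lie left of 0 where Sesn2 lies right of it.

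The wider pathway was read from lists written with earlier results of these libraries known. Of all listed genes, 4.07% were higher and 8.6% lower with glucose oxidase, and 6.66% and 8.04% with Et2HOBA added. Upstream, the list held 19 genes for the eIF2 kinases, eIF2, eIF2B, the eIF2 phosphatases and their regulators. None was past the limit with glucose oxidase (median 0.11). With Et2HOBA added (median 0.25) 2 were higher and 1 lower, shares close to those of all listed genes. The 3 were Eif2s2 (1.19) and Eif2b3 (1.18), subunits of eIF2 and of its exchange factor, and Eif2ak2 (-1.23), the kinase PKR, named after their values were seen. The PERK gene Eif2ak3 had 1171, 971 and 1008 reads, the HRI gene Eif2ak1 2769, 2354 and 2446, and the GCN2 gene Eif2ak4 1365, 1328 and 1926. The mRNAs of PERK, HRI and GCN2 thus lay within the limit in both comparisons, and that of PKR did so with glucose oxidase; mRNA levels say nothing of kinase activity.

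Downstream, 23 of 26 listed ATF4 targets in amino acid supply were higher and 1 was lower than control, with glucose oxidase and also with Et2HOBA added (medians 1.81 and 2.24). The cystine carrier Slc7a11 had 5932, 38521 and 51489 reads, and its partner chain Slc3a2 had 7093, 25278 and 34241. The synthetases that load tRNA with glycine, serine, asparagine and alanine, Gars, Sars, Nars and Aars, had log2 ratios to control of 1.71, 1.24, 1.38 and 1.20 with glucose oxidase. With Et2HOBA added they were 2.22, 1.78, 1.81 and 1.63. The lower gene, named after its value was seen, was Cbs, of the transsulfuration route from homocysteine, with 328, 17 and 11 reads. Of the 18 genes of this list with a promoter entry, 6 held TGATGNAA, beside 2.86% of listed genes with an entry. In the other lists it was 4 of 17 ATF4 and CHOP stress targets and 1 of 15 upstream genes. It was 1 of 19 ATF6 and XBP1 targets and 0 of 7 mitochondrial stress genes.

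Among 22 listed ATF4 and CHOP stress targets, 10 were higher with glucose oxidase and 12 with Et2HOBA added, and none was lower (medians 0.90 and 1.42). Ero1l, an oxidase of the endoplasmic reticulum and a CHOP target, had 1347, 6176 and 12535 reads. Hmox1, the heme-degrading enzyme, had 8325, 34083 and 60660 reads, and the autophagy receptor Sqstm1 had 23377, 53136 and 75166; both are also known NRF2 targets. Cars, Ndrg1 and Rhbdd1 were higher too, at log2 ratios of 1.96, 1.59 and 1.23 with glucose oxidase and 2.61, 2.59 and 1.71 with Et2HOBA added. Ndrg1, right at the limit, and the secreted stress factor Gdf15, at a log2 ratio of 1.63, were the 2 genes of this list higher with Et2HOBA than with glucose oxidase alone.

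Of 22 targets of ATF6 and XBP1, the other arms of the unfolded protein response, none was past the limit with glucose oxidase, and 1 was higher and 1 lower with Et2HOBA added (medians -0.05 and 0.10), shares close to those of all listed genes with Et2HOBA, 6.66% higher and 8.04% lower. The chaperone gene Hspa5 (BiP), a standard marker of those arms, had 17473, 18357 and 28410 reads. Its log2 ratios to control were 0.17 and 0.69; those of Calr, which encodes calreticulin, were -0.84 and -0.97. The pair past the limit, named after their values were seen, were Atf6 (1.19) and Sdf2l1 (-1.13). Of 9 listed mitochondrial stress genes, 3 were higher with glucose oxidase and 4 with Et2HOBA added, and none was lower (medians 0.46 and 0.66). Of all listed genes, 4.07% and 6.66% were higher in these comparisons. The mitochondrial chaperone Hspa9 had 13991, 33358 and 51058 reads, the protease Lonp1 6076, 17890 and 23739, and Gdf15, also in this list, 35, 125 and 437. Oma1 and Dele1, which relay mitochondrial stress to HRI, had log2 ratios between 0.01 and 0.06. Differences between these lists were not tested.

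**Figure D5:**
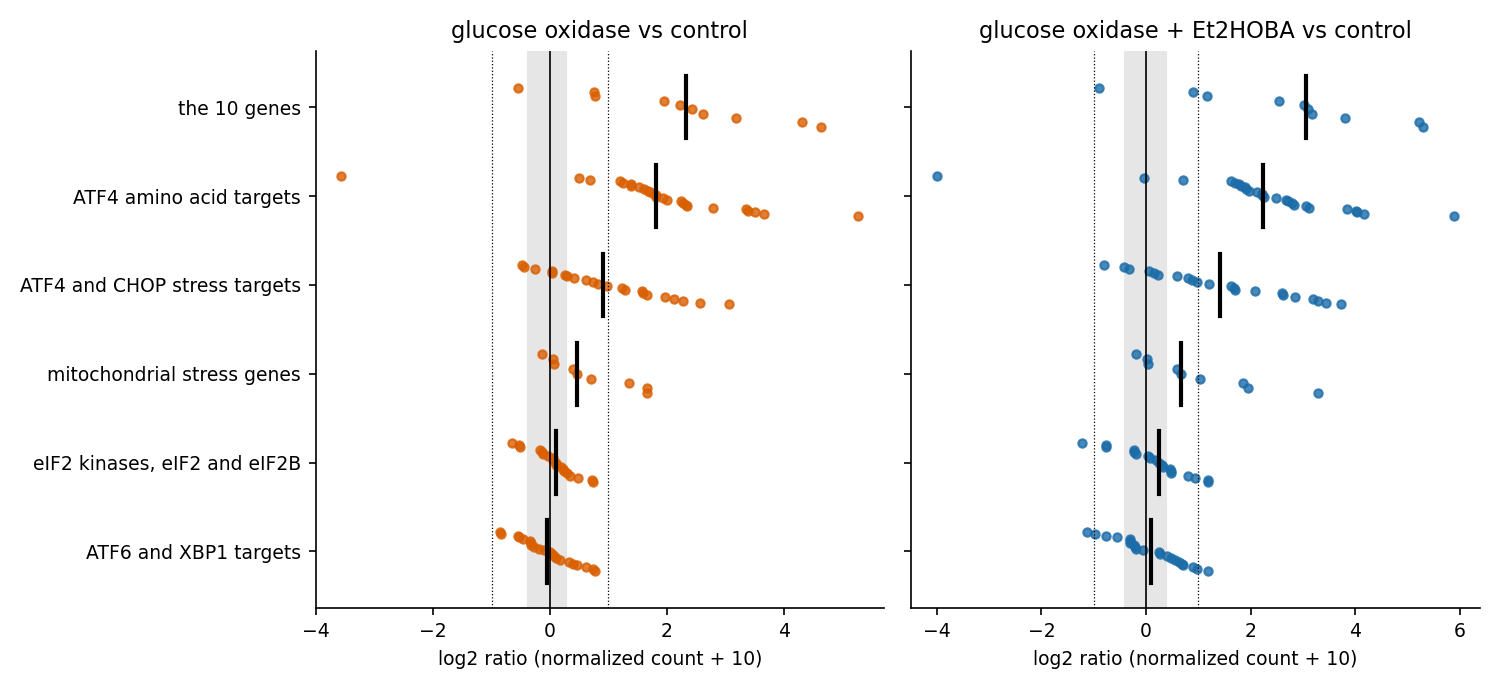
Log2 ratio to control (horizontal) of each listed gene in the 10 genes and 5 pathway lists, with glucose oxidase (left) and with Et2HOBA added (right); black bars are medians, the grey band spans the lower to the upper quartile of all listed genes, and dotted lines mark the limit of 1. The amino acid targets of ATF4 lie mostly above the limit, apart from Cbs at -3.57 and -3.99, while the ATF6 and XBP1 targets spread around 0.

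The genes whose pair of log2 ratios to control lay nearest to that of Atf4, among 11331 genes compared with a mean normalized count of at least 100, were mostly not on the pathway lists. In order they were Hmga2, Tgif1, Adam8, Cars, Hmga1b, Eps8, Plaur and Phyhd1, at distances of 0.0092 to 0.125 log2 units. Hmga2, a chromatin protein, had 6228, 22664 and 36195 reads, and Plaur, the urokinase receptor, had 837, 2944 and 4678. Likeness over a single pair of ratios is a description and carries no information on shared control.

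Most of the 10 genes were short, which did not enter their choice: 8 spanned under 10 kb of genome, beside 25.4% of listed protein-coding genes. The exceptions were Sesn2, at 18.5 kb, and Atf3, at 47.7 kb. The median span of the 10 genes was 3.88 kb (1.50 to 47.7 kb), against 23.2 kb for listed protein-coding genes. The median exon length of the 10 was 2.06 kb against 4.34 kb. Whether gene length goes with the log2 ratios was not tested.

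Markers were read beside these results. All 14 endothelial markers were listed, with a summed normalized count of 426495 in control, 311580 with glucose oxidase and 311903 with Et2HOBA added. Of these, 3 with glucose oxidase and 5 with Et2HOBA added were lower than control, beside 8.6% and 8.04% of all listed genes. Among protein-coding genes these shares were 4.76% and 9.3%. Tek, Vwf and Kdr were lower in both, and Nos3 was higher with Et2HOBA. Of the smooth muscle markers 6 of 7 were listed (summed 4863, 3723 and 3944, nearly all Smtn); 5 of the 6 had log2 ratios above 0 with glucose oxidase, and Myh11, with 19, 35 and 73 reads, was higher than control with Et2HOBA. Of pericyte markers 3 of 5 were listed (41.7, 123 and 137), and of fibroblast markers 3 of 7 (133, 1416 and 2738, mostly Pdgfra). Of leukocyte markers 3 of 8 were listed (8146, 17770 and 26858, nearly all Cd68): Cd68 was higher than control in both treated libraries, Lyz2, with 186, 76 and 86 reads, was lower in both, and Csf1r had 6, 12 and 10 reads. Of epithelial or mesothelial markers 2 of 6 were listed (1003, 2622 and 3823, nearly all Msln); the other, Krt19, had a log2 ratio of -0.36 with glucose oxidase and 0.24 with Et2HOBA added. Ptprc, Col1a2, Dcn, Epcam and Cdh1 were not listed, and Acta2 had 8, 18 and 13 reads. Listed genes at 0 reads numbered 131, 464 and 218, and processed pseudogenes took 0.718%, 0.389% and 0.751% of reads. The part of these shifts in the values of the 10 genes was not tested.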

How the data were processed

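Polyadenylated RNA of 3 libraries was sequenced after a stranded preparation, per the labels' protocols; STAR, featureCounts and mm10 are named in the submitters' processing notes, with versions not given in the sources used here. The authors deposited read counts of the control and glucose oxidase plus Et2HOBA libraries with log2 values and their difference, per the file headers. For glucose oxidase against control the deposited table held only log2 differences. The read counts behind them were recovered by inverting the inverse hyperbolic sine form of the deposited values: 100% of 18275 genes matched by symbol came out within 0.01 of a whole number, the largest distance being 0.000138. With 1 read added to each control count 3.31% did. A further 12 genes were placed by whole reads. The inversion was also run on simulated libraries whose differences were built with the same form. That run checks the calculation, not whether the deposited values follow the form.

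Size factors by median of ratios, used to divide the counts, were 1.03 for control, 0.965 for glucose oxidase and 1.04 with Et2HOBA added. Ratios used a pseudocount of 10, and folds of single genes used none. A common scale was needed because the deposited transformation shrinks low counts differently in each table; it acts like a pseudocount of 71.1 where Et2HOBA was given. All 17878 gene IDs of the same version in GENCODE M21 had the same position there, so coordinates are GRCm38. Stretches of 50 bases shared with transcripts of other gene entries were found in 1 of the 10 genes, Ddit3 (6.09%). The partner was another annotated Ddit3 entry. Promoters are those of RefSeq.

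No count model was fitted, since 1 library per group leaves no spread. Alternatives were pseudocounts of 1 and 50, total-count scaling, size factors over protein-coding genes, TMM factors (edgeR 4.0.16), a filter at a mean normalized count of 10, limits of 0.5 and 2, and the deposited log2 differences. The 10 genes and all lists were chosen with earlier results of these data known. Named were all 10 genes and their listed relatives; from each pathway list at most 6 genes of highest mean count past the limit in the same direction against control in both treated libraries; and the 8 genes most like Atf4. Kinases, markers, Hspa5, Calr, Oma1, Dele1 and genes marked so in the text were added after values were seen.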

Additional observations from a re-analysis of the deposited data

How the results depend on the processing

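No log2 ratio of the 10 genes changed sign among 70, 70 and 60 values recomputed under the alternatives. Only 2 crossed the limit: Ddit4 with Et2HOBA against control reached -1.04 under total-count scaling, under which the median of all genes was -0.13 (-0.06 with glucose oxidase against control and -0.08 between treated libraries), and Chac1 between treated libraries reached 1.01 with size factors over protein-coding genes, making the number past the limit 2. Total-count scaling gave medians of 2.90 with Et2HOBA against control and 0.48 between treated libraries, and the deposited log2 differences a median of 1.98 with glucose oxidase. Under total-count scaling the log2 ratio of Sesn2 between treated libraries was 0.03, against 0.13 in the main setting. The counting intervals leave out this uncertainty of the scaling. Between treated libraries 6 genes passed a limit of 0.5, all as higher, beside 13.6% of all listed genes higher and 12.0% lower. At a limit of 2 it was 0 genes, beside 2.10% higher and 0.0383% lower. Of all listed genes, 7.93% were higher with glucose oxidase at a pseudocount of 1, 2.27% at 50 and 1.51% as deposited, against 4.07%. With Et2HOBA against control these were 10.4% and 4.34% at pseudocounts of 1 and 50, against 6.66%; between treated libraries 10.9% and 2.56%, against 6.39%. Total-count scaling turned the split with Et2HOBA against control to 5.40% higher and 10.05% lower. No paired analysis was possible because each group has 1 library; none could be left out. No deposited difference of the 10 genes between treated libraries was used. Depth limits Chac1 most, at 65 reads in control.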

Other observations

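The log2 differences in the authors' deposited tables for glucose oxidase and for glucose oxidase plus Et2HOBA, each against control, are on different scales, and this shows for genes of low control count. For Chac1 they were 2.91 and 4.58, a gap of 1.67, where the direct log2 ratio of normalized counts between the treated libraries was 0.98. For Atf3 they were 1.72 and 3.31, a gap of 1.58 against a direct ratio of 1.17. For Atf5 the gap was 0.07, while the direct ratio was -0.09, so the sign differed.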
